A study of Homo sapiens with 20 samples.

Results

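The proteasome subunits and regulators measured here are the genes whose symbols start with PSMA, PSMB, PSMC, PSMD, PSME, PSMF or PSMG followed by a digit. Pseudogenes and antisense or divergent transcripts were left out. Each gene was read on 1 probe set, the one with the highest mean log2 intensity over the 20 arrays among those annotated to a single symbol. This gave 44 genes of 19775 on the array, and 43 of them passed the filter on low intensities and were tested among 17860 genes. The 44th gene, PSMA8, an alpha subunit of the testis, had a mean log2 intensity of 2.70 and was not tested. PSMA6 and PSME2 were represented only by probe sets that carry several symbols and were not used, and PSMC5, PSMD7, PSMD13 and PSMB11 were not analysed here. PSMC3IP and PSME3IP1 meet the symbol rule but encode proteins that are not subunits of the proteasome, so that 41 tested genes encode subunits, activators, inhibitors or chaperones.

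The proteasome is the protease that degrades proteins tagged with ubiquitin. Its barrel, the 20S core, has outer rings of alpha subunits, which gate the entrance, and inner rings of beta subunits, some of which carry the cutting sites, while the 19S regulatory particle on the barrel's end binds, unfolds and feeds in the substrate. In cells exposed to interferon, and constitutively in many blood cells, the catalytic subunits PSMB5, PSMB6 and PSMB7 are replaced by PSMB8, PSMB9 and PSMB10, which gives the immunoproteasome, whose products feed the presentation of peptides on MHC class I molecules.

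The data are from U937T cells, a subline of the human myeloid leukemia line U937 with a tetracycline (tet) repressible expression system. Clones E10 and E14 (U937T_EVI1-HA) carry an HA-tagged human EVI1 cDNA that is switched on by removing tet. P2 is a clone of cells with the empty vector (U937T_vec), and U937T is the parental line. All cells were kept in 0.5 µg/ml puromycin and 1 µg/ml tetracycline, and E10, E14 and P2 also in 500 µg/ml hygromycin. Cultures were washed and placed in medium without tet or, as controls, washed in the same way and returned to tet. RNA of E10 and E14 was taken at 4 times (6, 12, 24 or 48 h after the wash), which gave 16 arrays, and RNA of P2 and U937T at 48 h, which gave 4 arrays. Each line, time and condition had 1 array. E10 and E14 served as replicates of EVI1-expressing cells and P2 and U937T as replicates of cells that lose tet without gaining EVI1. Each EVI1 line is 1 clone. The fit took out constant differences between lines and used 1 residual variance per gene for all arrays. Of its 8 residual degrees of freedom, 7 came from E10 and E14 and 1 from P2 and U937T. The p-values therefore rest mostly on the remaining spread between E10 and E14. The SE given for the control lines equals that of the EVI1 clones and does not measure the spread of P2 and U937T. The response is the log2 intensity without tet minus that with tet, and the EVI1-specific response is the response of the EVI1 clones at 48 h minus that of the control lines. Adjusted p-values are from limma over all 17860 genes, and a gene was called at an adjusted p below 0.05. Values of different probe sets are not comparable as levels, and fewer cells expressing a gene cannot be told apart from less RNA per cell.

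EVI1 itself, read on 1 of the 5 probe sets of its locus MECOM, the brightest one, lay between 7.06 and 7.34 in the 8 EVI1 clone cultures with tet. Without tet it was 8.52 and 8.63 in E10 and E14 at 6 h, 9.52 and 9.92 at 12 h, 9.64 and 9.60 at 24 h, and 10.51 and 9.98 at 48 h. In P2 it was 6.90 with and 5.91 without tet, and in U937T 6.48 and 6.53. The other 4 probe sets of MECOM lay between 2.38 and 3.68 in all 20 arrays, with and without tet. Of 10 measured myeloid markers, 6 had a mean log2 intensity of at least 9, among them LYZ at 11.94 and AZU1 at 12.05, while MPO was at 4.97, and 0 of 7 epithelial or fibroblast, 0 of 7 lymphoid and 0 of 6 megakaryocyte or erythroid markers did. Averaged over each list, the lymphoid markers lay between 5.74 and 5.79 in the EVI1 clones with tet and between 6.06 and 6.07 without tet at 48 h, and the myeloid markers between 8.89 and 8.99 with tet and at 8.93 or above without tet. Single myeloid markers moved far more and in opposite directions at 48 h: TYROBP, a signaling adaptor, went from 6.07 to 10.05 in E10 and from 6.22 to 10.12 in E14, PRTN3, a granule protease, from 11.66 to 9.60 and from 11.40 to 9.12, and ELANE, neutrophil elastase, from 11.41 to 9.83 and from 11.30 to 9.28. In P2 and U937T, TYROBP went from 5.92 to 8.55 and from 6.05 to 7.97, and PRTN3 from 12.02 to 11.30 and from 12.07 to 11.46. The part of these shifts in the results below was not tested. The difference between 3′ and 5′ control probe sets, a sign of RNA integrity, ranged from 0.19 to 1.52 on the log2 scale with a median of 0.71, and both E14 arrays at 24 h had the highest values, 1.52 and 1.40. The pair of E14 arrays at 12 h differed, with 1.02 with tet and 0.46 without.

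At 48 h of EVI1 induction the proteasome genes did not move as a unit. The proteasome assembly chaperones PSMG1, PSMG3 and PSMG4 fell most, the immunoproteasome subunit PSMB9 rose, and most subunits of the 20S core and the 19S particle lay slightly below their level with tet. Of the 43 genes tested, 3 rose (PSMB9, PSME1 and PSME4) and 11 fell (PSMA3, PSMB5, PSMB7, PSMB10, PSMC4, PSMD3, PSMD11, PSME3, PSMG1, PSMG3 and PSMG4). That is 32.6% of the members, against 30.7% of all genes called in this comparison (16% higher and 14.7% lower). The share called in either direction was therefore near that of all genes, but the split differed, with 6.98% of the members higher and 25.6% lower. The median change of the members was -0.14, against -0.04 over all genes, and 35 of 43 members lay below 0. Similar counts lay below 0 in comparisons where no member was called lower. These were 35 of 43 at 6 h, 36 of 43 at 48 h against 6 h with tet, and 34 of 43 in E14 against E10. Whether members shift together between arrays was not tested. In the control lines at 48 h PSMB9 rose and PSMD3, PSMG1, PSMG3 and PSMG4 fell. That is 11.6% of the members (2.33% higher and 9.30% lower) against 10.7% of all genes (5.41% higher and 5.3% lower). The median change of the members was -0.05. The EVI1-specific response was called for 2 of 43 members (4.65%), PSMB9 above and PSMG4 below the control lines, against 5.46% of all genes (2.43% higher and 3.03% lower). Its median over the members was -0.17 against -0.004 over all genes, with 33 of 43 members below 0 and 8 members at an unadjusted p under 0.05.

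**Figure D1:**
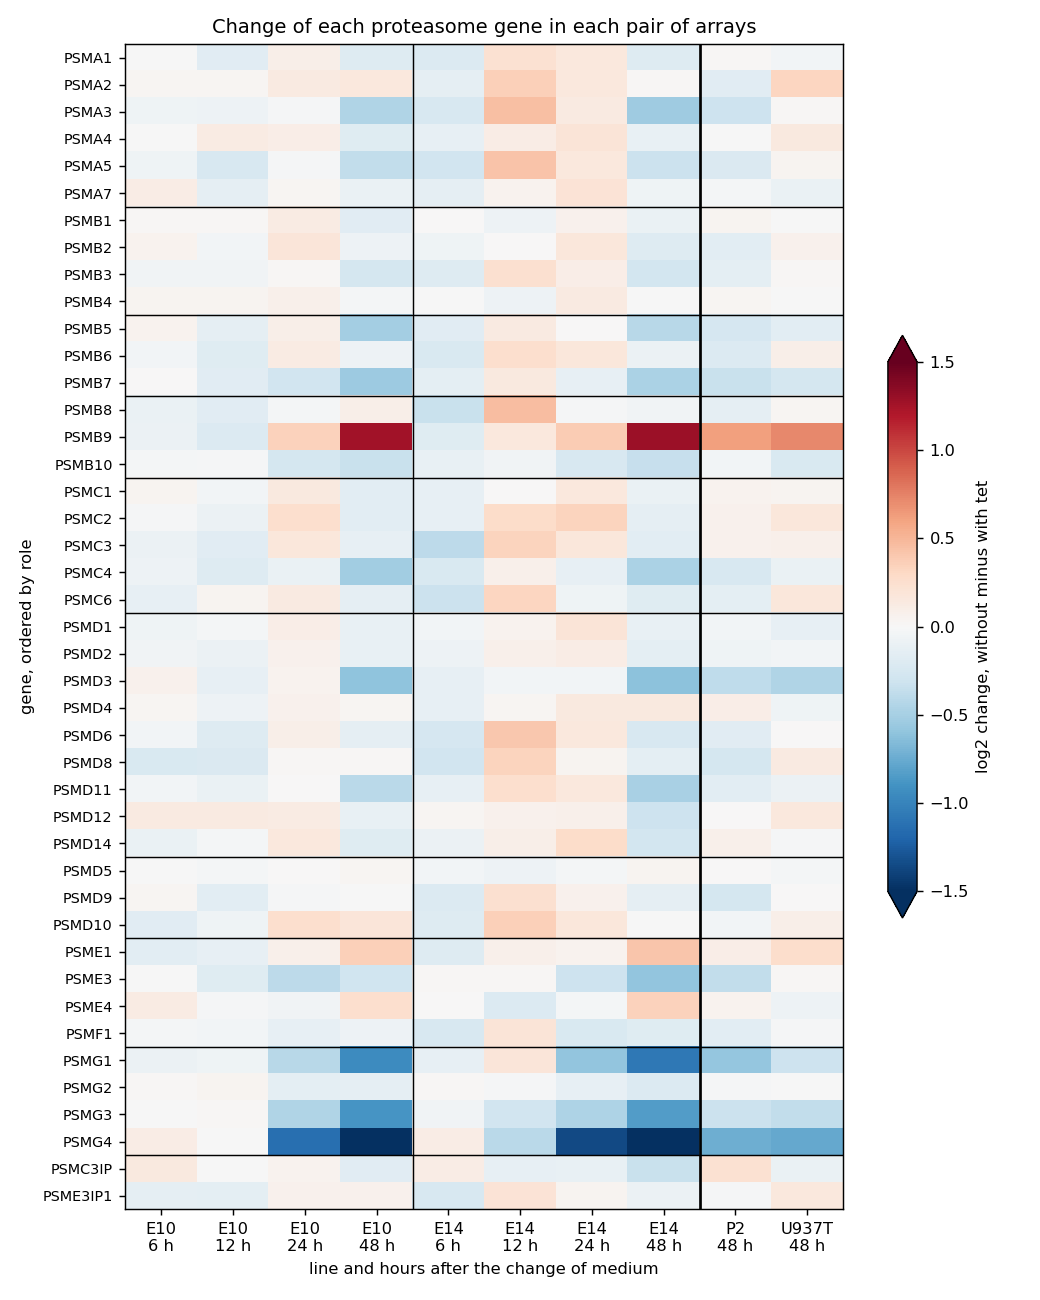
Difference in log2 intensity without minus with tet for each of the 43 tested members (rows, grouped by role) in each of the 10 pairs of cultures (columns, by line and time in h). The color scale is in log2 units and its darkest blue also holds the larger falls of PSMG4. PSMB9 stands out as raised at 48 h in all 4 lines, and PSMG1, PSMG3 and PSMG4 as lowered.

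Of the immunoproteasome subunits, PSMB9 (beta1i) was the one that rose. For PSMB9, the log2 intensity with and without tet at 48 h was 7.87 and 9.13 in E10, 7.69 and 8.97 in E14, 7.64 and 8.25 in P2, and 7.55 and 8.27 in U937T. Every culture without tet lay above every culture with tet, and both EVI1 clones without tet lay above both control lines without tet. The change was 1.27 (SE 0.11, adjusted p = 7.6e-07) in the EVI1 clones by limma, a 2.41-fold rise, and 0.67 (SE 0.11, adjusted p = 0.0017) in the control lines, a 1.59-fold rise. The EVI1-specific response of PSMB9 was 0.60 (SE 0.16, adjusted p = 0.038). Leaving out any of the 4 lines kept its size, from 0.55 without P2 to 0.66 without U937T, but ended the call, with limma adjusted p-values of 0.50 without E10, 0.58 without E14, 0.14 without P2 and 0.11 without U937T. Earlier, PSMB9 was 7.81 with and 7.72 without tet in E10 and 7.95 with and 7.77 without tet in E14 at 6 h, and 7.45 with and 7.24 without tet in E10 and 7.33 with and 7.49 without tet in E14 at 12 h. At these times PSMB9 was higher without tet in E14 at 12 h and lower in the other 3 pairs. At 24 h PSMB9 was 7.50 with and 7.85 without tet in E10 and 7.43 with and 7.81 without tet in E14, a change of 0.36 (SE 0.11, adjusted p = 0.036) that was not called without either clone. The response at 48 h exceeded that at 24 h by 0.91 (SE 0.16, adjusted p = 0.0055), and this call too was lost without either clone (adjusted p = 0.70 without E10 and 0.67 without E14).

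PSMB8 (beta5i) and PSMB10 (beta2i), which join PSMB9 in the assembled immunoproteasome, did not rise. For PSMB8, the log2 intensity with and without tet at 48 h was 10.85 and 10.93 in E10, 10.82 and 10.77 in E14, 10.64 and 10.51 in P2, and 10.59 and 10.63 in U937T. The cultures with and without tet overlapped, and the change was 0.02 (SE 0.16, adjusted p = 0.96) in the EVI1 clones and -0.05 (SE 0.16, adjusted p = 0.90) in the control lines. For PSMB10, the log2 intensity with and without tet at 48 h was 10.44 and 10.10 in E10, 10.37 and 10.03 in E14, 10.19 and 10.15 in P2, and 10.25 and 10.02 in U937T. Both EVI1 clones without tet were below both with tet, and PSMB10 fell by 0.34 (SE 0.08, adjusted p = 0.0063). Its change in the control lines was -0.13 (SE 0.08, adjusted p = 0.39), and its EVI1-specific response was -0.21 (SE 0.12, adjusted p = 0.41).

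Among the constitutive catalytic subunits, PSMB5 (beta5, chymotrypsin-like site) and PSMB7 (beta2, trypsin-like site) fell in the EVI1 clones at 48 h and PSMB6 (beta1, caspase-like site) was not called. For PSMB5, the log2 intensity with and without tet at 48 h was 10.86 and 10.35 in E10, 10.83 and 10.41 in E14, 10.68 and 10.43 in P2, and 10.52 and 10.36 in U937T. For PSMB7, the log2 intensity with and without tet at 48 h was 11.96 and 11.42 in E10, 11.89 and 11.41 in E14, 11.87 and 11.53 in P2, and 11.84 and 11.58 in U937T. In both genes every line was lower without tet, and the pair of EVI1 clones without tet lay below the pair with tet. PSMB5 fell by 0.47 (SE 0.11, adjusted p = 0.0035) and PSMB7 by 0.51 (SE 0.11, adjusted p = 0.0018). In the control lines their changes were -0.20 (SE 0.11, adjusted p = 0.27) and -0.30 (SE 0.11, adjusted p = 0.091), and neither EVI1-specific response was called (-0.26 with adjusted p = 0.40 and -0.21 with adjusted p = 0.53). For PSMB6, the log2 intensity with and without tet at 48 h was 11.07 and 10.99 in E10, 11.05 and 10.96 in E14, 11.02 and 10.82 in P2, and 10.77 and 10.86 in U937T. U937T was higher and the other lines were lower without tet, and the change in the EVI1 clones was -0.09 (SE 0.12, adjusted p = 0.66). PSMB7 has a further probe set of lower mean (7.84), which at 48 h was 0.49 lower in E10, 0.23 lower in E14 and 0.96 lower in U937T without tet but 0.50 higher in P2.

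The mean change of PSMB8, PSMB9 and PSMB10 minus the mean change of PSMB5, PSMB6 and PSMB7 describes the balance of both catalytic sets within a line. At 48 h it was 0.71 in E10, 0.62 in E14, 0.41 in P2 and 0.28 in U937T on the log2 scale, and at 24 h 0.04 in E10 and 0.03 in E14. The means were 0.67 ± 0.06 in the EVI1 clones and 0.35 ± 0.09 in the control lines (SD, n = 2 each). Without PSMB9, that is for PSMB8 and PSMB10 alone, the difference at 48 h was 0.25 in E10, 0.13 in E14, 0.17 in P2 and 0.01 in U937T. Of the balance at 48 h, the mean change of PSMB8, PSMB9 and PSMB10 was 0.33 in E10, 0.29 in E14, 0.14 in P2 and 0.18 in U937T, and that of PSMB5, PSMB6 and PSMB7 was -0.38, -0.33, -0.26 and -0.11 in the same order. On the probe sets of largest SD the balance at 48 h was 0.69 in E10, 0.54 in E14, 0.13 in P2 and 0.52 in U937T, so the order of the control lines turned and U937T came close to E14. Before 48 h it was farther from 0 on these probe sets in most pairs. It was -0.48 in E10 and -0.41 in E14 at 6 h, -0.02 and 0.43 at 12 h, and 0.29 and 0.17 at 24 h.

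**Figure D2:**
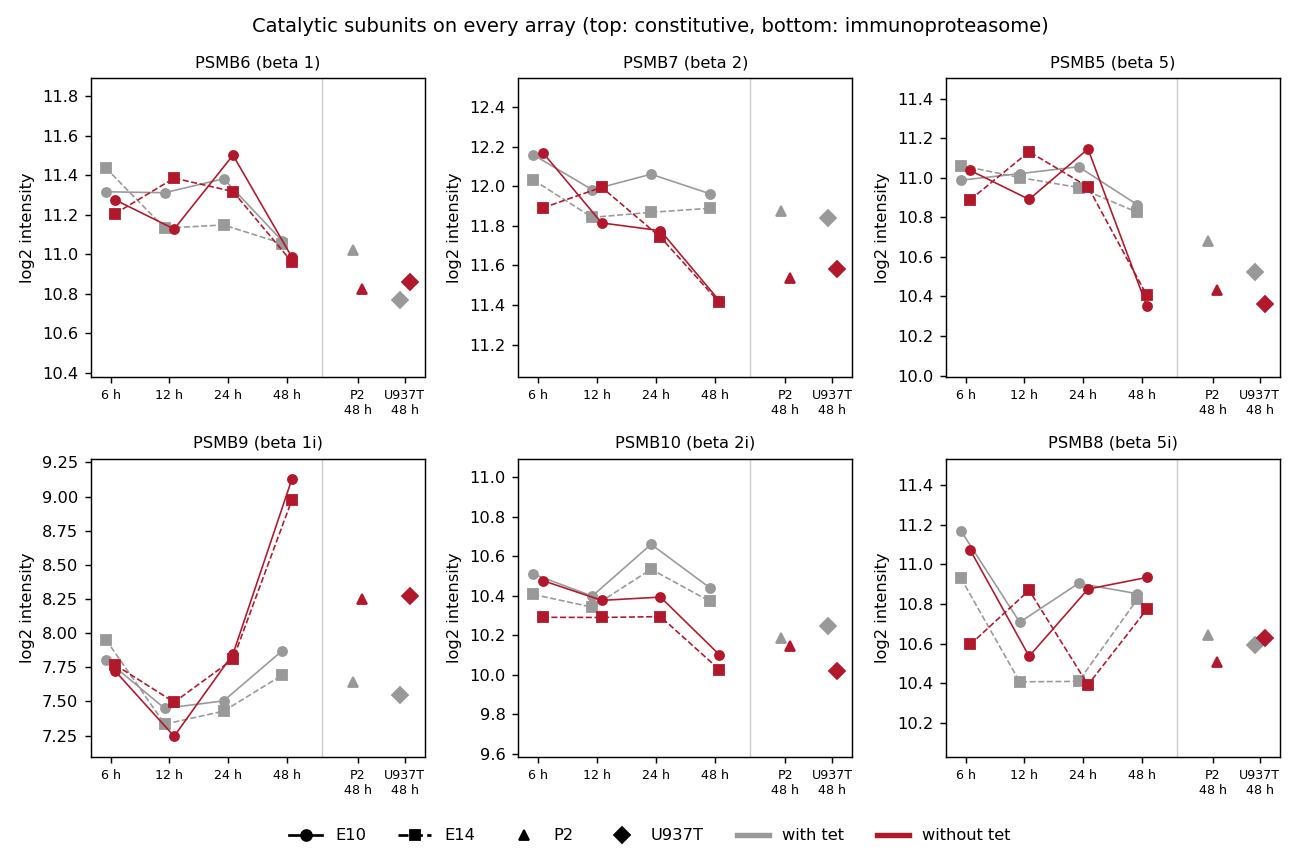
Log2 intensity of the constitutive catalytic subunits PSMB5, PSMB6 and PSMB7 and of the immunoproteasome subunits PSMB8, PSMB9 and PSMB10 in each of the 20 arrays, by time after the medium change in h. Lines join the times of a clone under the same condition, P2 and U937T stand as single symbols at 48 h, and PSMB9 is the panel in which the 48 h cultures without tet separate upward, at 9.13 and 8.97 in the EVI1 clones and 8.25 and 8.27 in the control lines.

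The upstream sequences of the immunoproteasome genes are shown because these subunits are known to share interferon control and yet differed here. Each is the 250 bases before the first start listed in RefSeq for the build GRCh38.p14, printed 5′ to 3′ on the gene's strand. Capitals mark matches on either strand to an interferon-stimulated response element core (ISRE, GAAA and GAAA with any pair of bases between them), a gamma-activated site (GAS, TTCNNNGAA), or an antioxidant response element core (ARE, TGACNNNGC). CCAAT and the E-box CACGTG were searched as well and are left in lower case.

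PSMB8 (chr6:32844680-32844929, minus strand): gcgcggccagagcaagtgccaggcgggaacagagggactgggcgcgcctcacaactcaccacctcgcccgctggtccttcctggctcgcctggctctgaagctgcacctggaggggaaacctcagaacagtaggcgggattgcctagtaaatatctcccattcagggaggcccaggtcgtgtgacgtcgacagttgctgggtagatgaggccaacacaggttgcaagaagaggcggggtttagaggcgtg
PSMB9 (chr6:32853942-32854191, plus strand): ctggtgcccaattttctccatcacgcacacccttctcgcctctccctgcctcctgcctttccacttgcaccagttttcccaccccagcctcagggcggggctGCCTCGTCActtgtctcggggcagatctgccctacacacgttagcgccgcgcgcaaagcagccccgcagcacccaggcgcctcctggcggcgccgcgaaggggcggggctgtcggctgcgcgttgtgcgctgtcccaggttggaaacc
PSMB10 (chr16:67936851-67937100, minus strand): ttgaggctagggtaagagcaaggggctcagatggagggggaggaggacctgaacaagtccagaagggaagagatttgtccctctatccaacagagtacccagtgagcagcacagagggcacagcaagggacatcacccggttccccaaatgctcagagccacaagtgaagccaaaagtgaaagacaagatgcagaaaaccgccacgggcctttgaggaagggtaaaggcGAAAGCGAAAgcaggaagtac

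The PSMB8 window held none of these motifs, and PSMB8 has 2 listed starts of which the first is shown. The PSMB9 window held an ARE core match on the minus strand, 148 to 140 bases upstream, and a CCAAT match, and PSMB10 an ISRE core match 21 to 12 bases upstream. The match in PSMB10, which fell, and the lack of one in PSMB9, which rose, are letters in a window and not tested sites. Of 38 members with a listed window, 4 (PSMA4, PSMB4, PSMB10 and PSMG4; 10.5%) held an ISRE core, against 3.02% of 35116 windows of all genes. A GAS match occurred in 5 (13.2%, against 6.57%), an ARE core in 10 (26.3%, against 10.9%), CCAAT in 17 (44.7%, against 32.0%) and the E-box in 4 (10.5%, against 6.34%). The units differ: each member entered with its first listed window only, while the shares over all genes count every listed window. Some genes have several. The first listed starts of PSMB9 and of TAP1, a subunit of the peptide transporter that loads MHC class I molecules, lie 488 bases apart on opposite strands.

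The assembly chaperones PSMG1, PSMG2, PSMG3 and PSMG4 guide the alpha subunits into a ring before the core matures, PSMG1 with PSMG2 and PSMG3 with PSMG4 as pairs. PSMG4 showed the largest fall of all 43 members at 48 h. For PSMG4, the log2 intensity with and without tet at 48 h was 10.43 and 8.69 in E10, 10.61 and 8.65 in E14, 10.51 and 9.78 in P2, and 10.54 and 9.77 in U937T. Each line was lower without tet, and both EVI1 clones without tet lay more than 1 log2 unit below both control lines without tet. The change was -1.85 (SE 0.13, adjusted p = 1.3e-07) in the EVI1 clones by limma, which left 0.277 of the intensity with tet, and -0.75 (SE 0.13, adjusted p = 0.0025) in the control lines, which left 0.596. The EVI1-specific response was -1.10 (SE 0.19, adjusted p = 0.0030). It kept its size but lost its call without E10 (-1.20, adjusted p = 0.075) and without E14 (-1.001, adjusted p = 0.17). With the mean of the 4 probe sets of PSMG4 that passed the filter, of which 2 have mean log2 intensities under 4, it was -0.15 (adjusted p = 0.62).

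PSMG4 was also the only one of the 4 chaperones to change with time in the presence of tet. With tet it was 10.12 in E10 and 9.84 in E14 at 6 h and 10.43 and 10.61 at 48 h, a rise of 0.54 (SE 0.13, adjusted p = 0.025), where 7.17% of all genes were called (3.1% higher and 4.07% lower). This call was lost with a covariate for the 3′ to 5′ difference (0.45, adjusted p = 0.11) and without E10 (0.77, adjusted p = 0.19) or E14 (0.32, adjusted p = 0.67). At 24 h PSMG4 was 10.62 with and 9.49 without tet in E10 and 10.85 with and 9.49 without tet in E14, and it fell by 1.24 (SE 0.13, adjusted p = 1.9e-05).

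PSMG1 and PSMG3 fell as well, by less than PSMG4. For PSMG1, the log2 intensity with and without tet at 48 h was 11.71 and 10.77 in E10, 11.74 and 10.66 in E14, 11.66 and 11.08 in P2, and 11.61 and 11.30 in U937T. For PSMG3, the log2 intensity with and without tet at 48 h was 10.61 and 9.74 in E10, 10.52 and 9.68 in E14, 10.48 and 10.16 in P2, and 10.51 and 10.13 in U937T. In both genes every line was lower without tet and the EVI1 clones without tet lay below the control lines without tet. PSMG1 fell by 1.01 (SE 0.13, adjusted p = 2.3e-05) and PSMG3 by 0.86 (SE 0.10, adjusted p = 1.3e-05) in the EVI1 clones, to 0.497 and 0.551 of the intensity with tet. The control lines fell by 0.44 (SE 0.13, adjusted p = 0.037) for PSMG1 and by 0.35 (SE 0.10, adjusted p = 0.041) for PSMG3, and both calls were lost after leaving out any single line, with adjusted p-values from 0.078 to 0.37 for PSMG1 and from 0.18 to 0.27 for PSMG3. The EVI1-specific responses missed the threshold, at -0.56 (SE 0.18, adjusted p = 0.088) and -0.51 (SE 0.14, adjusted p = 0.053). For PSMG2, the partner of PSMG1, the log2 intensity with and without tet at 48 h was 11.80 and 11.67 in E10, 11.77 and 11.57 in E14, 11.75 and 11.73 in P2, and 11.70 and 11.70 in U937T. It lay below its level with tet by 0.13 in E10 and 0.21 in E14, and its change was -0.17 (SE 0.08, adjusted p = 0.14) in the EVI1 clones and -0.01 in the control lines.

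**Figure D3:**
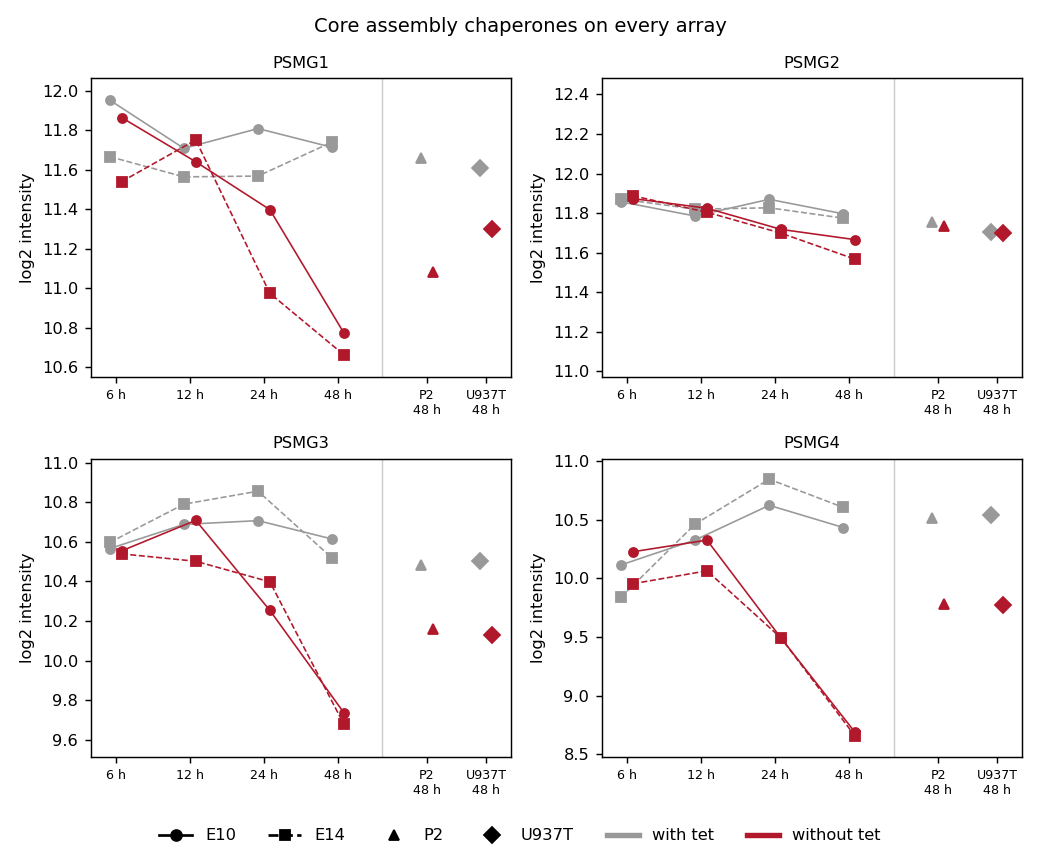
Log2 intensity of the assembly chaperones PSMG1, PSMG2, PSMG3 and PSMG4 in each of the 20 arrays, by time after the medium change in h, with lines joining the times of a clone under the same condition and single symbols for P2 and U937T. PSMG4 parts from its level with tet at 24 h (9.49 in both EVI1 clones) and further at 48 h (8.69 and 8.65), and PSMG2 lies within 0.21 of it at 48 h.

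The upstream windows of PSMG1 and PSMG4, which fell most among the assembly chaperones matched to a window by symbol, are given in the same form. No window was matched for PSMG3. PSMG4 held an ISRE core match 33 to 24 bases upstream, with the same letters as that of PSMB10, and PSMG1 an ARE core match 183 to 175 bases upstream and a CCAAT match.

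PSMG1 (chr21:39183452-39183701, minus strand): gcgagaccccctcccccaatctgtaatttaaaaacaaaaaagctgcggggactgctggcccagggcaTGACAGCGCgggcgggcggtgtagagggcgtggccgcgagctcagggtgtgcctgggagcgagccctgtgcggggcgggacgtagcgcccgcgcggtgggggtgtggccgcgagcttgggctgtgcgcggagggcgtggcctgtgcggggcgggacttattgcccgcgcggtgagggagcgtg
PSMG4 (chr6:3258697-3258946, plus strand): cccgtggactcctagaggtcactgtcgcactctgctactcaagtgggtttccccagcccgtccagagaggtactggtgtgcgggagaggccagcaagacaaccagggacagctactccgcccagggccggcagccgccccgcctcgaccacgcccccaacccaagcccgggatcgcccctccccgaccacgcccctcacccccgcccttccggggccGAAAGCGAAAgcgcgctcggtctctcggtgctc

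In the rest of the 20S core, PSMA3 was the only gene called in the EVI1 clones at 48 h. PSMA5 (-0.37 in E10 and -0.32 in E14) and PSMB3 (-0.27 in both clones) were lower without tet but not called. The alpha ring (6 genes tested) had a median change of -0.17 in the EVI1 clones at 48 h, and PSMA3, an alpha7 subunit, fell. For PSMA3, the log2 intensity with and without tet at 48 h was 11.53 and 11.08 in E10, 11.51 and 10.97 in E14, 11.42 and 11.11 in P2, and 11.22 and 11.24 in U937T. Both EVI1 clones without tet lay below all 4 cultures with tet of the EVI1 clones and control lines, while U937T did not decrease. The change of PSMA3 was -0.50 (SE 0.14, adjusted p = 0.016) in the EVI1 clones and -0.15 (SE 0.14, adjusted p = 0.61) in the control lines. The 4 structural beta subunits (PSMB1, PSMB2, PSMB3 and PSMB4) had a median of -0.13 and 0 of them were called. Taken with the constitutive catalytic subunits, 12 of 13 core genes lay below 0 at 48 h (median -0.15, against -0.04 over all genes). Of these 13 genes, 3 fell (23.1%, against 14.7% of all genes called lower). In the control lines 9 of 13 lay below 0 (median -0.05) and 0 were called, against 10.7% of all genes. In the EVI1 clones at 6 h, 11 of 13 lay below 0 (median -0.06) and 0 were called.

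In the 19S regulatory particle, PSMC4 of the ATPase ring, PSMD3 and PSMD11 of the lid fell among 14 subunits tested (21.4%, against 14.7% of all genes called lower). Of the 14, 13 lay below 0 at 48 h (median -0.15, against -0.04 over all genes). As many, 13 of 14, lay below 0 at 6 h (median -0.08), where 0 were called. For PSMD3, the log2 intensity with and without tet at 48 h was 9.96 and 9.36 in E10, 10.01 and 9.39 in E14, 9.90 and 9.52 in P2, and 9.93 and 9.48 in U937T. All 4 lines were lower without tet, and the groups with and without tet did not overlap. PSMD3 fell by 0.61 (SE 0.10, adjusted p = 0.00025) in the EVI1 clones and by 0.41 (SE 0.10, adjusted p = 0.016) in the control lines, where the call was lost after leaving out any single line (adjusted p from 0.11 to 0.18). Its EVI1-specific response was -0.19 (SE 0.14, adjusted p = 0.54). For PSMC4, the log2 intensity with and without tet at 48 h was 10.39 and 9.86 in E10, 10.38 and 9.90 in E14, 10.18 and 9.94 in P2, and 10.11 and 10.01 in U937T. For PSMD11, the log2 intensity with and without tet at 48 h was 11.20 and 10.79 in E10, 11.21 and 10.72 in E14, 11.13 and 10.98 in P2, and 11.00 and 10.92 in U937T. In both genes all 4 lines were lower without tet and the EVI1 clones had the larger differences. PSMC4 fell by 0.50 (SE 0.11, adjusted p = 0.0027) and PSMD11 by 0.45 (SE 0.12, adjusted p = 0.012), and neither EVI1-specific response was called (-0.34 with adjusted p = 0.28 and -0.33 with adjusted p = 0.36). The chaperones of the regulatory particle, PSMD5, PSMD9 and PSMD10, had a median change of 0.04 and 0 of 3 were called.

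The activators that replace the 19S particle went in different directions. PSME1 (PA28 alpha) belongs to the interferon-responsive activator of the immunoproteasome, PSME3 (PA28 gamma) to a nuclear activator, and PSME4 (PA200) caps the core in the nucleus, while PSMF1 (PI31) was described as an inhibitor of the core. For PSME1, the log2 intensity with and without tet at 48 h was 10.57 and 10.93 in E10, 10.44 and 10.85 in E14, 10.49 and 10.59 in P2, and 10.34 and 10.61 in U937T. Every line was higher without tet, and both EVI1 clones without tet were above all other cultures. PSME1 rose by 0.39 (SE 0.10, adjusted p = 0.0074) in the EVI1 clones, and its change in the control lines was 0.18 (SE 0.10, adjusted p = 0.29). Its EVI1-specific response was 0.20 (SE 0.14, adjusted p = 0.51). For PSME3, the log2 intensity with and without tet at 48 h was 10.92 and 10.61 in E10, 11.12 and 10.52 in E14, 11.05 and 10.69 in P2, and 10.85 and 10.86 in U937T. The difference was negative in E10, E14 and P2 and close to 0 in U937T, and PSME3 fell by 0.45 (SE 0.11, adjusted p = 0.0062) in the EVI1 clones, with an EVI1-specific response of -0.28 (SE 0.16, adjusted p = 0.40). PSME3 also fell at 24 h, by 0.35 (SE 0.11, adjusted p = 0.044), and its other 3 probe sets were lower without tet in both EVI1 clones at 48 h, by 0.60 to 0.90. For PSME4, the log2 intensity with and without tet at 48 h was 10.80 and 11.06 in E10, 10.74 and 11.08 in E14, 10.83 and 10.88 in P2, and 10.83 and 10.76 in U937T. Both EVI1 clones without tet lay above the other cultures, and PSME4 rose by 0.30 (SE 0.10, adjusted p = 0.030), with -0.01 in the control lines and an EVI1-specific response of 0.31 (SE 0.14, adjusted p = 0.25). On the probe set of largest SD, whose mean log2 intensity is 6.81, the change of PSME4 in the EVI1 clones was 0.09 (adjusted p = 0.90). On its remaining probe set, with a mean of 8.45, PSME4 was 0.52 higher in E10 and 0.33 higher in E14 without tet at 48 h. For PSMF1, the log2 intensity with and without tet at 48 h was 9.92 and 9.85 in E10, 10.03 and 9.85 in E14, 9.90 and 9.74 in P2, and 9.82 and 9.80 in U937T. Every line was slightly lower without tet and the groups overlapped, and the change in the EVI1 clones was -0.13 (SE 0.11, adjusted p = 0.45).

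When either EVI1 clone was left out, 1 of the 3 members that rose and 3 of the 11 that fell at 48 h were still called. Those were PSMB9, PSMG1, PSMG3 and PSMG4, whose calls at 48 h held in all 15 alternative settings. With 1 clone left, each EVI1 group is 1 array and the 1 residual degree of freedom comes from P2 and U937T alone, so the remaining clone is assumed to vary as the control lines do.

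**Figure D4:**
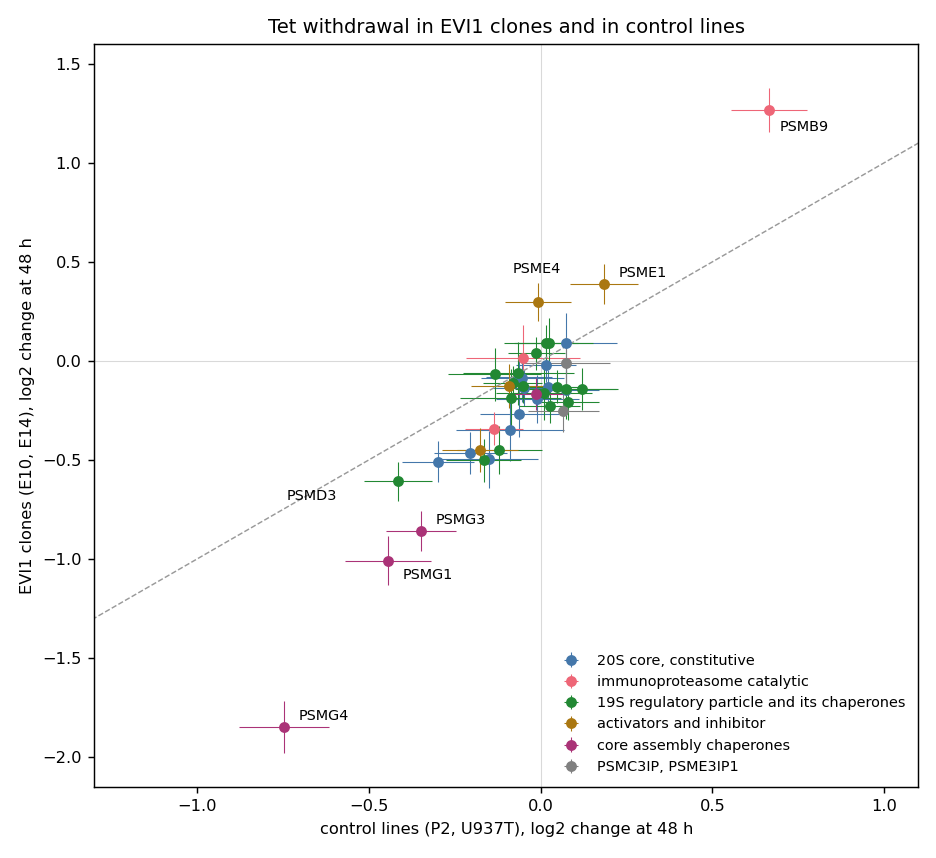
Response to tet withdrawal at 48 h of the 43 tested members (points, colored by role), with the log2 change of the control lines P2 and U937T on the x axis and that of the EVI1 clones E10 and E14 on the y axis. Bars are standard errors from limma, the dashed line marks equal change, and PSMG4 (-0.75 and -1.85) and PSMB9 (0.67 and 1.27) lie farthest from the line.

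Over time, 0 of 43 members were called by limma at 6 h and at 12 h of EVI1 induction, with 0 at an unadjusted p under 0.05 at either time, where 0% and 0.028% (0.0168% higher and 0.0112% lower) of all genes were called. At 24 h PSMB9 rose and PSME3, PSMG1, PSMG3 and PSMG4 fell, which is 11.6% of the members against 17.1% of all genes (7.97% higher and 9.16% lower). PSMG1 fell at 24 h by 0.50 (SE 0.13, adjusted p = 0.012) and PSMG3 by 0.46 (SE 0.10, adjusted p = 0.0057). Of these calls at 24 h only that of PSMG4 was kept when either clone was left out. In contrast to 48 h, 12 of 13 genes of the core without the immunoproteasome subunits lay above 0 at 24 h (median 0.11). So did 13 of 14 of the 19S subunits (median 0.10), and 0 in either set were called. The median over all genes at 24 h was 0.007. At 6 h, 11 of 13 core and 13 of 14 19S genes lay below 0 (medians -0.06 and -0.08), with 0 called. At 12 h the median of the members ran from -0.07 to 0.11 when single lines were left out. The response at 48 h was below that at 24 h in all 13 core and all 14 regulatory particle genes (medians -0.30 and -0.31), and the difference was called for PSMD3, at -0.62 (SE 0.14, adjusted p = 0.026), where 3.7% of all genes were called (2.07% higher and 1.63% lower). PSMD3 was 10.22 with and 10.28 without tet in E10 and 10.20 with and 10.16 without tet in E14 at 24 h. Its call was lost without either clone (adjusted p = 0.94 without E10 and 0.91 without E14) and with arrays centered on their medians (-0.59, adjusted p = 0.055). With the 3′ to 5′ covariate, the median change of the members at 24 h was 0.02 in place of 0.07, and the part of RNA integrity in the sign at 24 h was not tested.

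Of 29 tested partners of the proteasome outside the symbol rule (shuttle factors, deubiquitinases, assembly factors and regulators), 3 rose and 7 fell in the EVI1 clones at 48 h (34.5%, against 30.7% of all genes), with a median of -0.03. UCHL5 (-1.12) and USP14 (-0.32), deubiquitinases that bind the 19S particle, and ADRM1 (-0.41), the ubiquitin receptor that recruits UCHL5, fell, as did the shuttle factor UBQLN4 (-0.91). AKIRIN2, which brings proteasomes into the nucleus, rose by 0.60. POMP, which completes the assembly of the core, was 0.12 and 0.09 higher without tet in E10 and E14 and 0.04 and 0.14 higher in P2 and U937T, and was not called. NFE2L1, the transcription factor of the proteasome recovery response, was 0.11 and 0.25 lower in E10 and E14 and was not called. In the control lines at 48 h UBQLN4 fell too and UBQLN2 rose (6.90% of the 29, against 10.7% of all genes). At 48 h against 6 h with tet, UBQLN4 was called higher and ZFAND2A lower (6.90%, against 7.17% of all genes). The EVI1-specific response was called for 0 of 29 by limma, against 5.46% of all genes, with 3 at an unadjusted p under 0.05.

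Of 22 tested genes of peptide loading on MHC class I molecules and its regulators, 16 rose and TAP2, the other transporter subunit, fell (-0.84) in the EVI1 clones at 48 h, with a median of 0.57 against -0.04 over all genes. Called genes made up 77.3% of the list there, against 30.7% of all genes. This share counts HLA-B, HLA-C, HLA-E and HLA-F as separate genes, and the probes read for HLA-E and HLA-F may match related genes. In the control lines 6 rose and 1 fell, with a median of 0.27 and with 31.8% called against 10.7% of all genes. With tet, from 6 h to 48 h, NLRC5 and TAP2 were called higher and IFNGR1, IFNGR2 and TAPBPL lower (22.7%, against 7.17% of all genes). Of these, NLRC5, IFNGR1 and TAPBPL were also called in the EVI1-specific response. TAP1, the neighbor of PSMB9, was 8.27 with and 8.80 without tet in E10, 8.21 and 8.69 in E14, 8.06 and 8.14 in P2 and 8.08 and 8.03 in U937T at 48 h. It rose by 0.50 (SE 0.11, adjusted p = 0.0021) in the EVI1 clones and changed by 0.02 (adjusted p = 0.95) in the control lines, and its EVI1-specific response of 0.48 missed the threshold (adjusted p = 0.083). The EVI1-specific response was called for 5 of the 22 (22.7%, against 5.46% of all genes), all above 0, among them TAPBPL (1.05), a peptide editor of MHC class I, HLA-E (0.78), a nonclassical class I molecule read on a probe set whose probes may match related genes, NLRC5 (0.77), the transactivator of MHC class I genes, and IRF2 (0.65), an interferon regulatory factor. IRF1 is known to drive PSMB9 and TAP1. Without tet at 48 h IRF1 was 1.37 and 1.11 higher in E10 and E14 and 0.86 and 0.71 higher in P2 and U937T. It was called in the EVI1 clones and in the control lines but not in the EVI1-specific response. Whether IRF1 had a part in the changes of PSMB9 and TAP1 was not tested.

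Between the clones, averaged over times and conditions, 0 of 43 members differed at the threshold by limma (11 at an unadjusted p under 0.05), where 0.319% of all genes were called (0.19% higher and 0.129% lower). The largest difference of E14 minus E10 was that of PSMA5, -0.25 (SE 0.08, adjusted p = 0.15).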

How the data were processed

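RNA of the 4 lines was hybridized to 20 arrays (Affymetrix HG-U133 Plus 2.0). The deposited values are log2 intensities per probe set, which the authors made by Robust Multi-array Analysis (background correction, quantile normalization and median polish); the software version is not given in the sources used here. They lie on similar scales (array medians from 5.25 to 5.35) and were used without further normalization. Of 54675 probe sets, 41097 carry 1 gene symbol in the platform annotation and 1801 carry several, which were not used. Probe sets had to reach the intensity filter of the study, a mean log2 of at least 3 in each line at 24 and 48 h (48 h in P2 and U937T).

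The brightest probe set on average stood for each gene, and 17860 genes were fitted with limma 3.58.1 in R 4.3.3 (10 groups of line type, time and tet, line as a fixed block, 8 residual degrees of freedom, Benjamini-Hochberg adjustment over all genes, threshold 0.05). The line block pairs cultures of the same line, as the labels name it. Across genes, deviations of E10 from E14 in 1 group correlated with those in another with a median r of 0.11 over 28 pairs of groups (-0.22 to 0.52) and those of P2 from U937T with r = -0.21. The number of arrays limits the precision. The script was tested on simulated data. Promoter windows are those of RefSeq (GRCh38.p14), and 38 of 44 genes matched by symbol.

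The members, gene lists, tests and alternatives were chosen with earlier results of these data known. Values on every array were to be given for the catalytic subunits, the activators, PSMF1 and members called in the EVI1-specific response, and statistics for up to 4 called members per role; the array values of the other genes, and POMP, NFE2L1, TAP1, IRF1 and PSMA5, were added with the values in view. Alternatives covered the filter, the probe set, array centering, the variance model, the line block, the arrays in the fit, the 3′ to 5′ covariate and leaving out each line.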

Additional observations from a re-analysis of the deposited data

Results flagged for a closer look

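PSMB9 was flagged because its response at 48 h differed between the EVI1 clones and the control lines, by 0.60 on the log2 scale in limma's test of the difference, with both clones above both control lines. PSMG4 was flagged for the same test in the other direction, with a difference of -1.10. Between times, the response of PSMB9 in the EVI1 clones was 0.91 larger at 48 h than at 24 h, and that of PSMD3 differed by -0.62. The arrays of both clones entered both times, so these differences rest on 2 lines.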

How the results depend on the processing

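With 1 array per line, time and condition, the calls rest on 2 lines per group, and leaving out an EVI1 clone left 1 residual degree of freedom, from P2 and U937T alone, so that the lone clone is assumed to vary like the control lines. Over the 15 alternatives, 813 values of named genes kept their direction and their side of the threshold, 89 lost a call, 12 gained one and 22 changed sign. The causes of the changes below were not tested unless fewer arrays or genes entered the fit. The group means of the immunoproteasome balance at 48 h stayed within 1 SD, at 0.64 and 0.62 in the EVI1 clones and 0.33 and 0.32 in the control lines with the mean and the largest-SD probe set, but single control lines did not: P2 was 0.27 and 0.13 and U937T 0.40 and 0.52.

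When each line was left out in turn, the EVI1 clones had 0 to 1 members higher and 1 to 5 lower at 24 h, and 1 to 3 higher and 3 to 11 lower at 48 h (median -0.18 to -0.13). The control lines had 1 lower (median -0.0596 to -0.00053). The EVI1-specific response had 0 higher and 0 to 1 lower, the 48 h minus 24 h difference 0 to 1 higher and 0 to 1 lower (median -0.27 to -0.23), and time with tet 0 to 1 higher. Some uncalled values changed sign: at 48 h PSMB8 ranged from -0.0514 to 0.0821 in the EVI1 clones. In the control lines PSMB6 ranged from -0.20 to 0.0924, PSMB8 from -0.14 to 0.0347, PSME3 from -0.37 to 0.0142, PSME4 from -0.0727 to 0.0573 and PSMA3 from -0.32 to 0.0165. In the EVI1-specific response PSMB6 ranged from -0.18 to 0.11, PSMB8 from -0.0193 to 0.15 and PSMF1 from -0.11 to 0.0351.

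Without the E14 arrays at 12 and 24 h, 0 members were higher and 1 lower at 24 h, 1 was lower in the control lines, 0 were higher in the EVI1-specific response, 0 were higher and 0 lower for 48 h minus 24 h, and 3 were lower with time in tet in place of 0, where 6.00% of all genes were called in place of 7.17%. With the arrays at 48 h only, 1 was lower in the control lines and 0 were higher in the EVI1-specific response. Without the replicate block, or with a random one, 2 members were lower in the EVI1-specific response in place of 1, the second being PSMG3 (4.77% and 5.38% of all genes called), and no other count of called members moved by over 1.5 times; the control call of PSMG1 was lost with adjusted p = 0.078 and 0.054 by limma.

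On the probe set of largest SD, 0 members were higher at 24 h (median 0.0469), the median at 48 h was -0.23, the control lines had 2 higher and 2 lower, the EVI1-specific response 0 higher, the 48 h minus 24 h difference 0 lower, and time with tet 4 higher (7.43% of all genes called). In the control lines PSME4 was then 0.22, PSMF1 0.0536 and PSMA3 0.20, the EVI1-specific value of PSME4 was -0.12, and PSMB7 rose with time in tet by 2.03 (adjusted p = 0.0061 by limma). With the mean of all probe sets of a gene that passed the filter, the median was 0.0381 at 24 h and -0.11 for time with tet, PSME4 was 0.10 in the control lines, and PSMB7 rose by 0.93 (adjusted p = 0.0039) with time in tet.

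With a mean log2 of at least 5, 2 members were higher at 24 h, 2 lower in the EVI1-specific response, 3 lower for 48 h minus 24 h and 1 lower with time, while the genes called overall rose from 17.1% to 26.8%, 5.46% to 9.49%, 3.70% to 7.68% and 7.17% to 13.4%. With arrays centered on their medians, the median was 0.0418 at 24 h and -0.20 for 48 h minus 24 h, 2 members were lower in the control lines, 0 lower for 48 h minus 24 h and 1 lower with time, and PSME4 was 0.00198 in the control lines. With an intensity trend and robust variance, 3 were higher at 24 h, 3 lower in the EVI1-specific response, 6 lower for 48 h minus 24 h and 2 lower with time, with 18.6%, 6.78%, 5.48% and 9.10% of all genes called. With the 3′ to 5′ covariate, 2 were higher at 24 h (median 0.0159), 3 lower in the EVI1-specific response, 4 lower for 48 h minus 24 h and 0 higher with time (median -0.057), with 19.8%, 7.11%, 5.06% and 3.22% of all genes called, PSME4 was 0.00899 in the control lines, and the EVI1-specific values of PSMB6 and PSMF1 were 0.0271 and 0.0124.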

Other observations

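Some members read differently on their further probe sets. The second probe set of PSMB7 was higher at 48 h than at 6 h with tet, by 2.45 in E10 and 1.61 in E14, where the one with the highest mean differed by -0.20 and -0.14. A weaker probe set of PSMB2, a structural beta subunit, with a mean log2 intensity of 6.23, was higher without tet at 48 h, by 1.43 in E10, 1.66 in E14, 1.33 in P2 and 0.59 in U937T. On the probe set of PSMB2 with the highest mean the differences were -0.08, -0.19, -0.16 and 0.07.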
